A study of Mus musculus with 2 samples.

Results

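The lysosome is the acidic compartment in which cells break down proteins, glycans and lipids, and 40 genes that build and run it are described here in 2 mouse libraries. The genes were taken by name: 13 proteases (the cathepsins, legumain and tripeptidyl peptidase), 10 glycan and lipid hydrolases, 3 soluble cofactors, 7 proteins of the lysosomal membrane, 6 genes of the proton pump, and the regulator Tfeb. All 40 had a row in both libraries, among 21461 nuclear protein-coding genes and 43346 mouse gene rows. Both libraries were total RNA, depleted of ribosomal RNA and prepared with a ScriptSeq kit from 100 ng, of primary cells labelled megakaryocyte, the platelet-forming cell of the bone marrow, taken from male adult C57BL/6J animals 5 to 6 weeks old. They form 1 group, with no treatment or mutation named and no other group to compare it with, so the comparisons are between genes and between library 1 and library 2, numbered as in the labels. The labels call them biological replicates and name the same donor for both. Nothing says that they came from separate animals, so their spread may be technical. Fragments of 221 to 1000 nucleotides were stated for library 1 and of 200 to 1000 for library 2. Of the isolation only a protocol title was used here, on erythroid cells and megakaryocytes taken from bone marrow.

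Soluble lysosomal enzymes are made as inactive precursors, tagged in the Golgi apparatus with mannose 6-phosphate and carried to the lysosome, where acid activates them. The vacuolar proton pump supplies that acid, with a membrane sector, V0, that carries protons and a cytosolic sector, V1, that hydrolyses ATP. Myeloid cells such as macrophages are rich in these enzymes, and megakaryocytes carry lysosomal granules that platelets inherit. Tfeb is a transcription factor that binds an E-box motif, CACGTG, in the promoters of many lysosomal genes and can raise their transcription together.

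Summed expected counts, which are estimated numbers of reads, were 42703213 in library 1 and 50532821 in library 2. Levels are in TPM, which corrects counts for transcript length and brings each library to the same total. Nuclear protein-coding genes held only 24.0% of all TPM in library 1 and 26.8% in library 2, so each TPM would be higher on a scale of these genes alone. The label was checked against marker genes. Of 14 megakaryocyte markers, 11 lay under 1 TPM in both libraries, their summed levels were 10.6 TPM (library 1) and 12.2 TPM (library 2), and the platelet glycoprotein genes Gp5 and Gp6 had 0 counts in both. The same sums were 14860 and 14020 TPM for 12 neutrophil markers and 7757 and 10150 TPM for 13 monocyte and macrophage markers. Both lists were uneven. Among the neutrophil markers S100a8 had 7266 and 7929 TPM and S100a9 had 4471 and 3427 TPM, and all 12 reached 10 TPM in both libraries. Among the monocyte and macrophage markers Lyz2 alone had 5969 TPM in library 1 and 8031 TPM in library 2. In that list 8 genes reached 10 TPM in both libraries, but C1qa, C1qb, C1qc and Mertk stayed below 1 TPM in both. The markers go against the label, and the samples are called the libraries labelled megakaryocyte. Bulk RNA cannot tell fewer cells of a type from less RNA per cell.

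Since many lysosomal genes are known to share the E-box, the promoters of the 40 genes were searched for it. The windows are those of RefSeq on GRCm38.p6, from 250 bases before to 50 bases after each annotated start, and 34 of the 40 genes had at least 1. The window of Lamp1, which encodes an abundant membrane protein, is shown whole because it held 4 copies of the motif, more than any other member. Capitals mark CACGTG.
Lamp1, chr8:13158911-13159210, plus strand: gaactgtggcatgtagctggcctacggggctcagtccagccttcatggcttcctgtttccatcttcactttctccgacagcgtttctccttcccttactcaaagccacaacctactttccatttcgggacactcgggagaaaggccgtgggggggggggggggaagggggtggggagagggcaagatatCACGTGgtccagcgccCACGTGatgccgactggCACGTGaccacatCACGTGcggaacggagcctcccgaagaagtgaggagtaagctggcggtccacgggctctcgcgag
The 4 motifs of Lamp1 began 61, 45, 28 and 15 bases before the start.

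Of the 34 genes with a window, 11 held CACGTG, which is 32.4%, against 2187 of 27025 genes, or 8.09%, in the whole table (7.15% of its 32851 windows). The genes of the whole table were not matched to the members by gene type or by level. The motif is its own reverse complement, so 1 search covers both strands. The longer form TCACGTG, which contains it, was searched on both strands and was found in 9 of 34 members, or 26.5%, and in 4.29% of all genes. The form GTCACGTG, which contains both, was found in 7 members, or 20.6%, and in 2.55% of all genes. A match is a description of the letters in this window and does not show binding. To compare what surrounds the motif, the copy nearest upstream of the start is given for each of the other 10 members that held one, with the motif in capitals.
Ctsa, chr2:164833753-164833774, plus strand: caaactgtCACGTGatgcagat
Ctsd, chr7:142387912-142387933, minus strand: ccgcgtctCACGTGacccgttg
Lgmn, chr12:102439128-102439149, minus strand: atgtctgtCACGTGgtccattt
Ctsl, chr13:64370743-64370764, minus strand: ttagaagcCACGTGctgatcta
Ctsf, chr19:4855078-4855099, plus strand: ccgtggtcCACGTGcctcgcgt
Glb1, chr9:114401022-114401043, plus strand: ttctgagtCACGTGgcctacag
Gaa, chr11:119267815-119267836, plus strand: tgtgcgatCACGTGtttgactc
Mcoln1, chr8:3500466-3500487, plus strand: gccccgctCACGTGaccgcggc
Atp6v0d1, chr8:105566054-105566075, minus strand: actgcggtCACGTGagacgcgg
Atp6v1a, chr16:44139377-44139398, minus strand: ttttaaatCACGTGataggctt
These copies lay between 3 bases (Atp6v0d1) and 236 bases (Ctsl) before the RefSeq start of their window. A gene can have other starts. By the gene spans of GENCODE M21, the copies printed for Ctsa, Ctsd, Lgmn, Ctsl, Mcoln1 and Atp6v1a lie inside the gene, downstream of its outermost start. Only Ctsf and Ctsl lacked the longer form TCACGTG. By class the motif was found in 5 of 10 proteases, 2 of 9 hydrolases, 2 of 6 membrane proteins, 2 of 5 pump genes, 0 of 3 cofactors and not in Tfeb. The median level was 9.08 TPM over the 11 genes with it and 33.2 TPM over the 23 without it. Levels with it ran between 0.07 TPM (Ctsf) and 205 TPM (Lamp1), and Psap and Ctss, the most abundant members, had none.

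**Figure D1:**
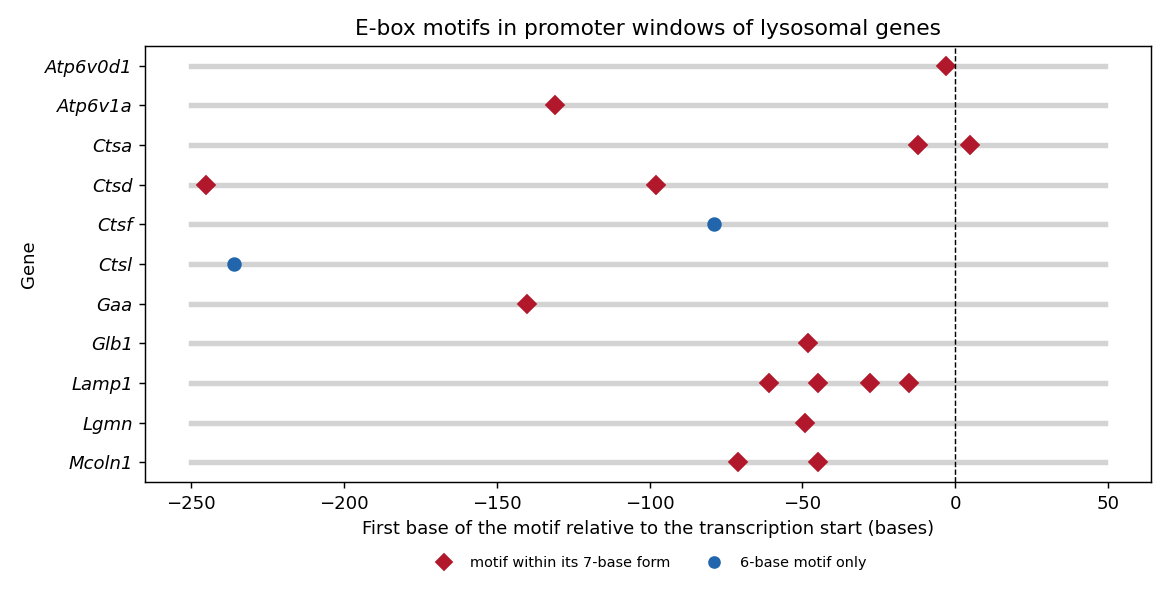
Position of CACGTG in the promoter windows of the 11 lysosomal genes that held it, in bases from the annotated start (0, dashed line); the grey bar is the window searched, red diamonds are motifs within TCACGTG and blue circles are motifs without it. Lamp1 has 4 motifs between 61 and 15 bases before the start, and only Ctsf and Ctsl have the short form alone.

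The lysosomal genes were broadly expressed in the libraries labelled megakaryocyte. The median over the 40 genes was 28.7 TPM (26.3 in library 1 and 31.9 in library 2), against 0.28 TPM over all nuclear protein-coding genes and 8.04 TPM over the 9100 at 1 TPM or more in both libraries. At 10 TPM or more in both libraries stood 27 of the 40, against 16.9% of all nuclear protein-coding genes, and 38 were at 1 TPM or more in both. Psap, Ctss, Lamp1 and Ctsc exceeded 100 TPM in both libraries, and Ctsk and Ctsf were under 1 TPM in both. Together the 40 genes summed to 2494 TPM in library 1 and to 2865 in library 2, which is 1.04% and 1.07% of nuclear protein-coding TPM. The sum was uneven: Psap and Ctss alone held 40.8% of it in library 1 and 42.8% in library 2.

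**Figure D2:**
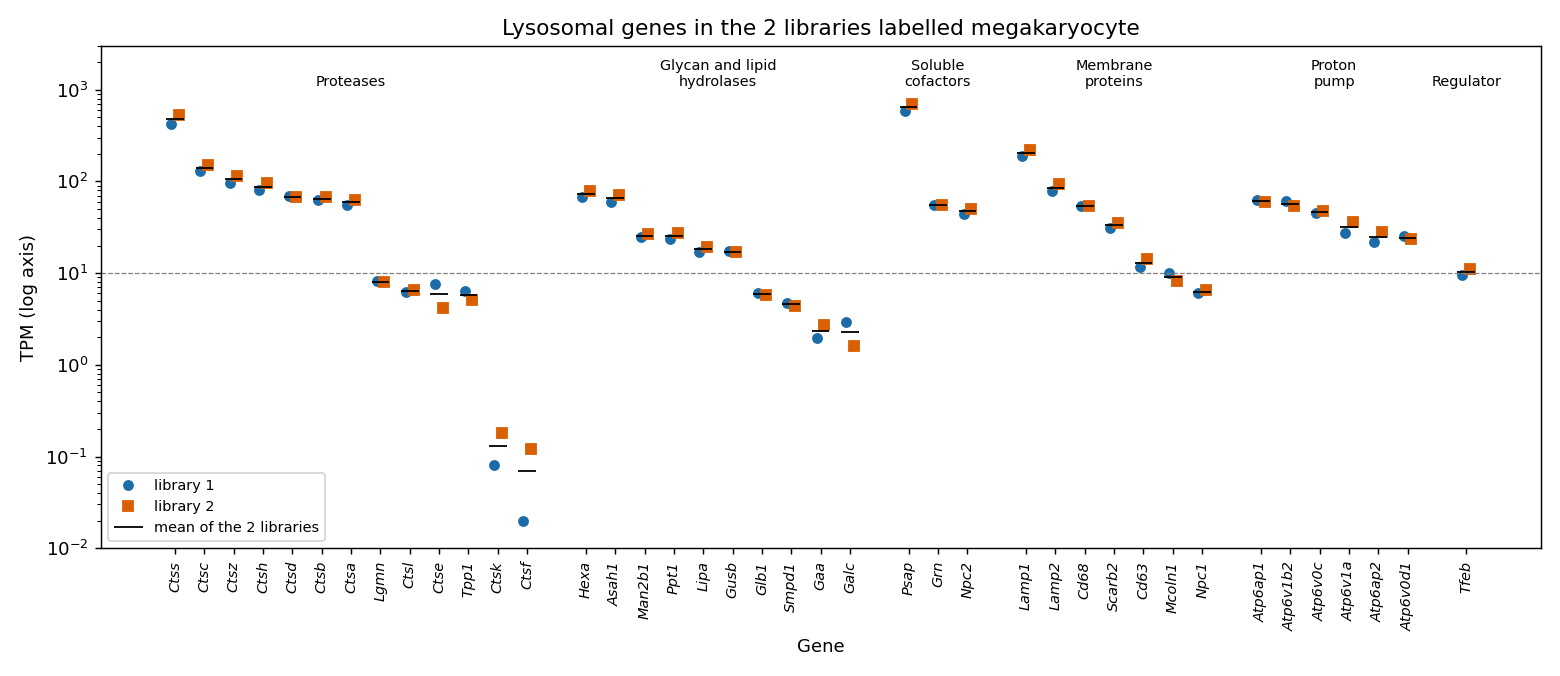
TPM (log axis) of the 40 lysosomal genes by class, with library 1 as blue circles, library 2 as orange squares and their mean as a bar; the dashed line is 10 TPM. Psap and Ctss stand highest, Ctsk and Ctsf lie under 1 TPM, and the distance between the libraries is small beside the range over genes.

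Cysteine cathepsins led the proteases, with Ctss first. Ctss, a cathepsin that antigen-presenting cells use to trim the invariant chain of MHC class II (chr3:95526786-95556403 on mm10), had 427.5 TPM in library 1 and 528.4 TPM in library 2 (478 ± 71.3, SD, n = 2), and ranked 66 among nuclear protein-coding genes. Ctsc, which activates the serine proteases of granules, had 129 and 152.4 TPM (140.7 ± 16.6). Ctsz, a carboxypeptidase, had 96.5 and 113.6 TPM. All 3 had the higher TPM in library 2, and Ctsc and Ctsz lay far below Ctss.

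A middle group of 4 proteases lay between 55.6 and 95.7 TPM in either library. Ctsh, an aminopeptidase, had 79.95 and 95.7 TPM. Ctsd, the main aspartic protease of lysosomes, had 68.6 and 67.4 TPM, and Ctsb, a cysteine protease with both endopeptidase and exopeptidase activity, had 61.9 and 67.7 TPM. Ctsa, a serine carboxypeptidase that also shields beta-galactosidase and neuraminidase from breakdown, had 55.6 and 62.5 TPM. Ctsd and Ctsb changed order between the libraries, so their order was not resolved. The ranges of Ctsb and Ctsa over the libraries overlapped, but within each library Ctsb stood above Ctsa.

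Lower still were Lgmn, the asparaginyl endopeptidase that matures other cathepsins, at 8.23 and 7.9 TPM, and Ctsl, a widely used endopeptidase, at 6.17 and 6.6 TPM. Tpp1, which removes tripeptides from protein ends, had 6.42 and 5.14 TPM, and Ctse, an aspartic protease of endosomes, had 7.69 and 4.14 TPM. Lgmn was the highest of these 4 in both libraries, and the ranges of the other 3 overlapped. The ratio of Ctss to Ctsl, 2 cathepsins that share the invariant chain as a substrate in different cells, was 69.3 in library 1 and 80.1 in library 2. Ctsk, the collagen-degrading cathepsin of osteoclasts, had 10 counts in library 1 and 25 in library 2 (0.08 and 0.18 TPM). Ctsf, a cysteine cathepsin, had 3 and 24 counts (0.02 and 0.12 TPM). In library 1 that is the 3-count limit used for a level of 0, which is 0.0171 TPM for Ctsf.

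Outside the 13, Ctsg, a serine protease stored in the primary granules of neutrophils and their precursors, had 70.2 and 76.9 TPM, so Ctss exceeded it 6.09-fold and 6.87-fold. The listed inhibitors of the cysteine cathepsins were present too, all 8 at 1 TPM or more in both libraries. Some of them are short and rest on few counts, down to 24 in library 2. Cst3, the secreted inhibitor cystatin C, had 257.5 and 316.9 TPM, and the ratio of Ctss to it was 1.66 and 1.67. Cstb, the cytosolic cystatin B, had 31.3 and 33.1 TPM.

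The glycan and lipid hydrolases were lower, with a class median of 17.6 TPM (17.1 in library 1 and 18.1 in library 2) against 59.1 TPM for the proteases (55.6 and 62.5). Hexa, the alpha subunit of beta-hexosaminidase, had 67.3 and 79.5 TPM, and Asah1, acid ceramidase, had 59.9 and 71.2 TPM. Both held well above the other 8. Man2b1, the acid alpha-mannosidase, had 24.7 and 26.5 TPM, and Ppt1, which removes palmitate from proteins, had 23.6 and 27.6 TPM, so these 2 were not separable. Lipa, the acid lipase that frees cholesterol from its esters, had 16.9 and 19.3 TPM, and Gusb, beta-glucuronidase, had 17.3 and 17.0 TPM, which also overlapped.

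The remaining 4 hydrolases were under 10 TPM. Glb1, beta-galactosidase, had 6.02 and 5.82 TPM, and Smpd1, acid sphingomyelinase, had 4.75 and 4.37 TPM. Gaa, the acid alpha-glucosidase that breaks down glycogen, had 1.98 and 2.7 TPM, and Galc, which removes galactose from galactosylceramide, had 2.92 and 1.59 TPM. Gaa and Galc changed places between the libraries. Among 27 further hydrolases and activators, 25 reached 1 TPM in both libraries and 8 reached 10 TPM, with a median of 5.72 TPM. Among the highest were Gm2a, the GM2 activator, at 47.5 and 49.2 TPM, and the fucosidase Fuca1 at 35.5 and 51.7 TPM. The hyaluronidases Hyal1 and Hyal2 were under 1 TPM in both.

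The 3 soluble cofactors included the most abundant member. Psap encodes prosaposin, the precursor of the saposins that present sphingolipids to their hydrolases (chr10:60277627-60302597). It had 589.1 TPM in library 1 and 699.1 TPM in library 2 (644 ± 77.8), with 139397 and 186855 counts, and ranked 39 among nuclear protein-coding genes. Grn, progranulin, which is cut into granulins in the lysosome and also binds prosaposin, had 55.8 and 55.3 TPM. Npc2, which hands cholesterol to Npc1, had 44.5 and 50.1 TPM. Psap exceeded Grn 10.6-fold in library 1 and 12.6-fold in library 2, and Grn stood above Npc2 in both.

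The membrane proteins ran between 6.28 and 205 TPM by mean, with a class median of 33.2 TPM. Lamp1, the main glycoprotein of the lysosomal membrane (chr8:13159161-13175338), had 187.5 and 222.1 TPM. Its relative Lamp2, which also serves in autophagy, had 78.7 and 92.8 TPM, and the ratio of Lamp1 to Lamp2 was 2.38 in library 1 and 2.39 in library 2. Cd68, macrosialin, a relative of the Lamp proteins found mainly in macrophages and related cells, had 54.5 and 53.6 TPM. Scarb2, the receptor that carries beta-glucocerebrosidase to the lysosome, had 30.9 and 35.6 TPM. These 4 keep the same order in both libraries with no overlap.

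Cd63, a tetraspanin of late endosomes, lysosomes and platelet dense granules, was low at 11.7 and 14.3 TPM. Its value is uncertain, since reads may be shared with the copy Cd63-ps, which was given 20.4 and 58.3 counts. Mcoln1, the lysosomal calcium channel that activates Tfeb through calcineurin, had 10.04 and 8.12 TPM. Npc1, the membrane transporter for cholesterol, had 6.05 and 6.5 TPM, so Npc2 exceeded it 7.36-fold and 7.71-fold. The other 13 membrane genes had a median of 4.83 TPM, with Laptm5, a lysosomal protein of blood cells, at 89.9 and 85.6 TPM, Laptm4a at 47.8 and 53.4 and Ostm1, a partner of the chloride transporter of lysosomes, at 20.0 and 22.8. Lamp3, known from mature dendritic cells, had 1 count in library 1 and 0 in library 2.

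The 6 proton pump genes all lay between 21.9 and 63.2 TPM in either library. Atp6ap1, an accessory subunit needed for assembly, had 63.2 and 59.7 TPM, and Atp6ap2, the accessory subunit also known as the prorenin receptor, had 21.9 and 28.1 TPM. In the V1 head, Atp6v1b2 had 60.4 and 53.7 TPM and the catalytic subunit Atp6v1a had 27.5 and 35.9 TPM, a ratio of 2.2 in library 1 and 1.49 in library 2. The transcript length that the TPM of Atp6v1a corrects for was estimated at 3876 bases in library 1 and 3430 in library 2. In V0, Atp6v0c, the subunit of the proton-carrying ring, had 44.8 and 48.0 TPM, and Atp6v0d1, which links V0 to the stalk, had 25.2 and 23.7 TPM. The ranges of Atp6v1a and Atp6ap2 over the libraries overlapped, but within each library Atp6v1a stood above Atp6ap2. The ranges of Atp6ap2 and Atp6v0d1 overlapped too, and these genes changed order between the libraries.

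Several pump subunits have alternative forms from separate genes, and only some were detected. Among the 19 other pump genes, 11 reached 1 TPM in both libraries, and 5 had 0 counts in both: Atp6v1b1, Atp6v1c2, Atp6v1e2, Atp6v0a4 and Atp6v0e2. For Atp6v1b1, the form of subunit B found in kidney and other epithelia, the limit that a count of 0 leaves is 0.0176 TPM in library 1 and 0.0156 in library 2. The other form of subunit B, Atp6v1b2, stood at 57 ± 4.72 TPM. For Atp6v0a4, the kidney form of subunit a, the limits were 0.0251 and 0.0223 TPM. Tcirg1, the form of subunit a known from osteoclasts and lysosomes of immune cells, had 78.6 and 86.0 TPM, and exceeded Atp6v0a1 7.03-fold and 9.55-fold and Atp6v0a2 11.8-fold and 15.0-fold; the last 2 were picked out once their values were known. The highest pump gene was Atp6v0e at 137.9 and 164.1 TPM, and among the pump genes outside the 40 members it was followed by Tcirg1 and by Atp6v0b at 56.9 and 67.4 TPM. Atp6v0d2, the form of subunit d known from osteoclasts, had 85 counts in library 1 and 0 in library 2, and Atp6v1g3 had 27 and 0. Both lay under 1 TPM in both libraries, beside 23.7 TPM or more for Atp6v0d1, and Atp6v1g2 was at 0.89 and 0.82 TPM.

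**Figure D3:**
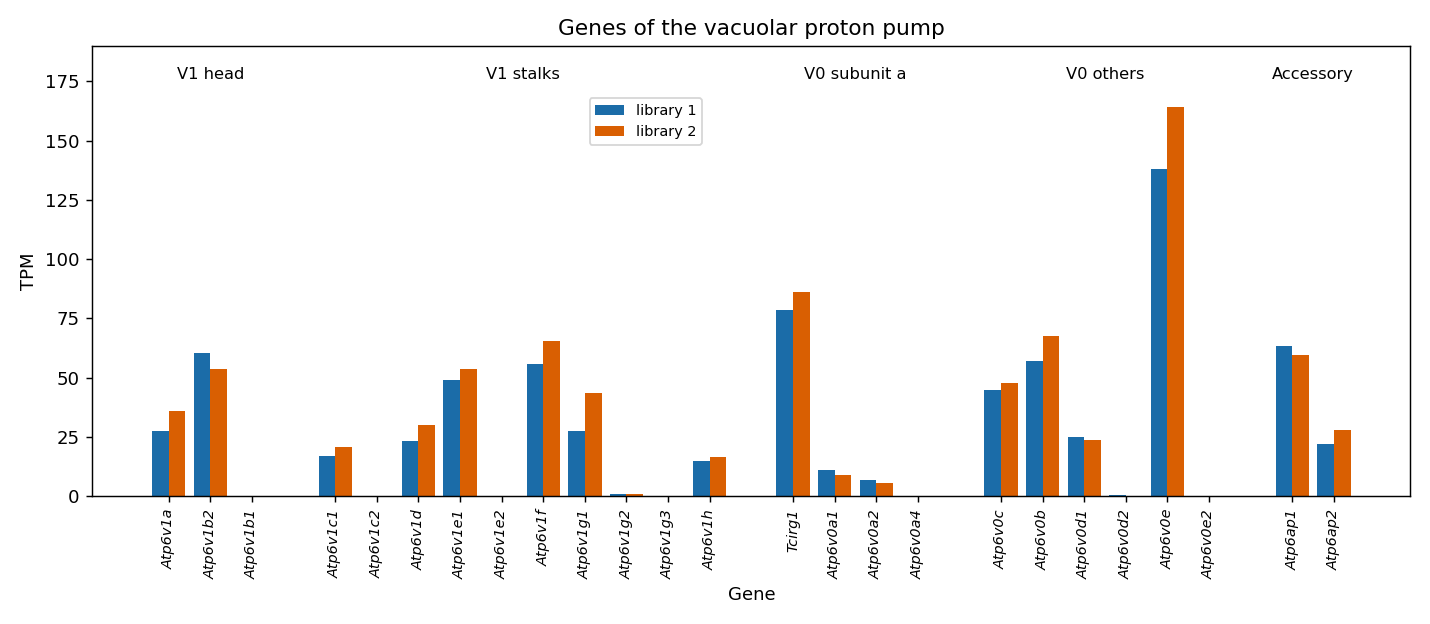
TPM of 25 genes of the vacuolar proton pump in library 1 (blue bars) and library 2 (orange bars), ordered by the part of the pump they build. For most subunits 1 gene carries the level, such as Atp6v1b2 beside Atp6v1b1 at 0, while Atp6v0e is highest in both libraries.

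The regulator Tfeb (chr17:47737030-47792419) had 9.57 and 10.96 TPM (10.3 ± 0.983). Tfec, a relative found in macrophages, had 11.4 and 16.0 TPM, and the ratio of Tfeb to it was 0.837 and 0.684. Against Tfe3, another relative, singled out after its value was seen, the ratio was 0.979 in library 1 and 1.79 in library 2. The intervals deposited with the TPM of Tfeb and Tfe3 overlapped in library 1, so their order there was not resolved. Tfe3 had 1866 counts in library 1 and 1977 in library 2. The transcript length that its TPM corrects for was estimated at 1905 bases in library 1 and 2831 in library 2. Rragd, a GTPase subunit upstream of Tfeb, was under 1 TPM in both. Among the sorting genes, M6pr, the small receptor for mannose 6-phosphate, had 81.7 and 98.2 TPM and Sort1, the receptor sortilin, 30.5 and 29.4 TPM. Nagpa, which uncovers the mannose 6-phosphate tag, had 18.9 and 20.6 TPM. Igf2r, the large receptor for the same tag, named here after its value was seen, stood at 1.42 and 1.03 TPM, and M6pr exceeded it 57.6-fold and 95.3-fold.

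The libraries were then compared gene by gene on counts scaled to each other, as the ratio of library 1 to library 2. With 1 library on each side there is no test; the interval beside a ratio is a 95% counting interval, covers counting error only and says nothing of animals. At 1.5-fold or more apart lay 4 of the 40 genes, against 18.0% of the 12081 genes whose mean count was at least 10. That background holds many genes of low level: of the 9100 genes that also stood at 1 TPM or more in both libraries, 5.05% lay as far apart, beside 2 of the 38 members at that level. Higher in library 1 were Ctse and Galc, 2 of 40, against 9.81% of all genes tested. Higher in library 2 were Ctsk and Ctsf, also 2 of 40, against 8.15%. The ratio was 1.9 for Ctse (interval 1.75 to 2.07; 1410 and 879 counts) and 1.92 for Galc (1.74 to 2.12; 1051 and 651 counts). Ctsk, at 0.474 (0.203 to 1.02), and Ctsf, at 0.148 (0.0286 to 0.488), rest on few counts, and the interval of Ctsk includes 1.

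Smaller differences leaned towards library 2. The ratio was under 1 in 27 of 40 genes, against 6046 of the 12081 tested. The median log2 ratio was -0.09, against 0.00 over all genes tested. The interval lay wholly below 1 in 23 of the 40, or 57.5%, against 34.1% of all genes tested, and wholly above 1 in 10, or 25.0%, against 33.7%. Psap had a ratio of 0.885 (0.879 to 0.891), Ctss 0.853 (0.843 to 0.863) and Lamp1 0.886 (0.874 to 0.898). Among the well-counted members Atp6ap2 was lowest, at 0.815 (0.784 to 0.846). In the other direction, Tpp1 was at 1.31 (1.23 to 1.39) and Atp6v1b2 at 1.18 (1.16 to 1.21). Beside these, 9 of 13 monocyte and macrophage markers had an interval below 1 (median log2 ratio -0.16), and 11 of 12 neutrophil markers had one above 1 (median log2 ratio 0.28). Of the 14 megakaryocyte markers only 6 had a mean count of at least 10, as needed for a ratio. The part of these cell types in the lean of the lysosomal genes was not tested.

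**Figure D4:**
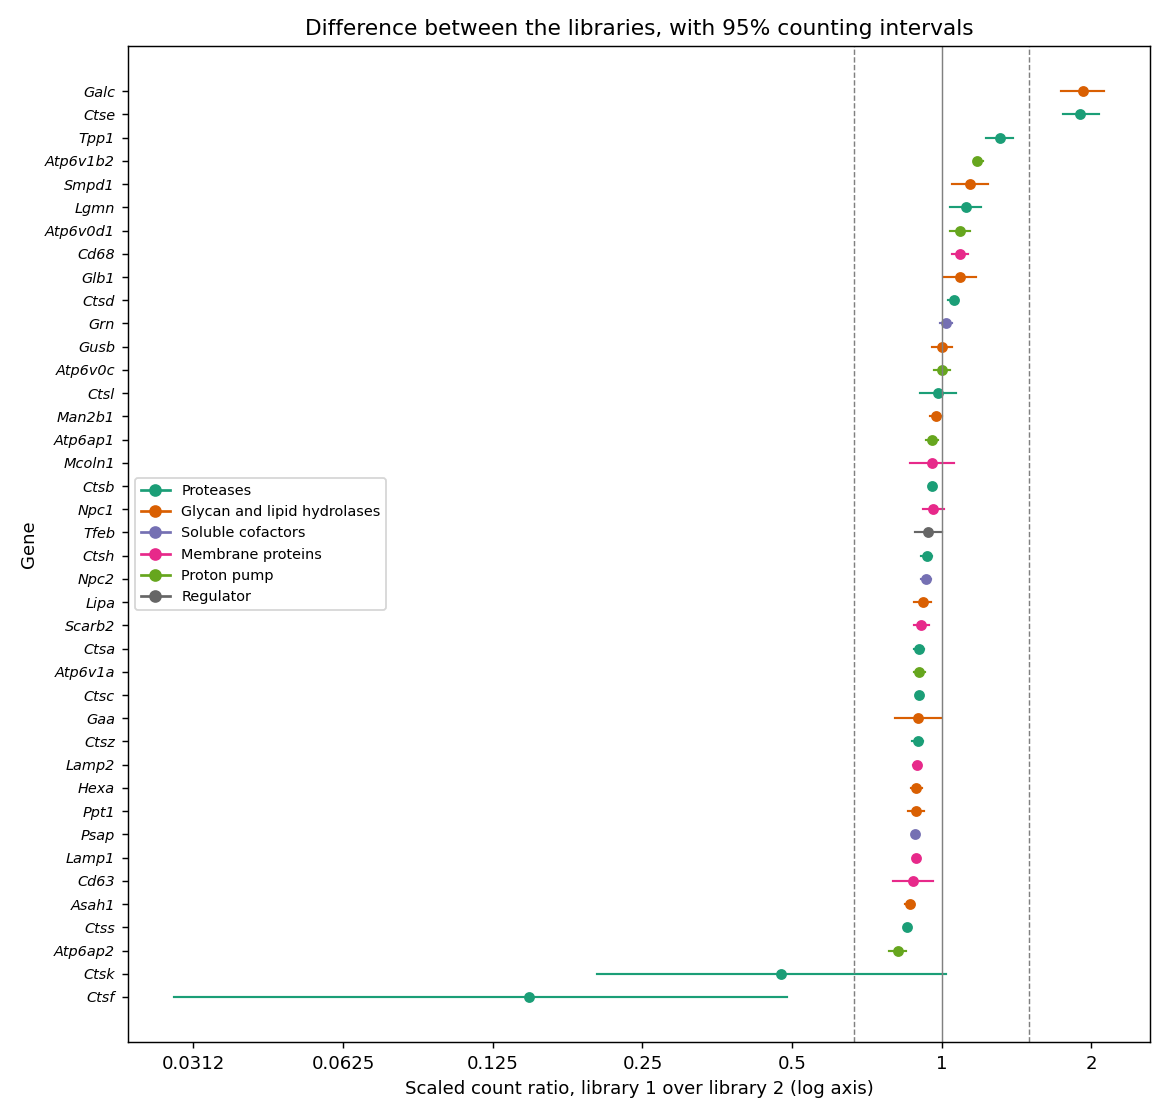
Ratio of scaled counts, library 1 over library 2 (log axis), for the 40 lysosomal genes, with 95% counting intervals as bars and colours for the classes; dashed lines mark 1.5-fold either way. Galc and Ctse lie beyond 1.5-fold in library 1, Ctsk and Ctsf in library 2, and most other genes lie just below 1.

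Each transcript's share of its gene was taken from the deposited percent column. A single transcript was listed for 14 of the 40 genes, Ctsb, Ctsl, Hexa and Lamp1 among them. Protein-coding transcripts held 95% or more of the TPM in both libraries in 28. The shares are estimates that divide reads among overlapping transcripts, and no interval was computed for them.

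Most of the Psap TPM was assigned to a transcript with a downstream start. Psap-203 held 74.4% of the Psap TPM in library 1 and 79.5% in library 2, and Psap-202, the transcript that starts at the upstream end of the gene, held 19.5% and 14.1%. The start of Psap-203 lies 6834 bases downstream of that of Psap-202, and the 2 share 13 of 14 coding exons. The coding parts of their first exons, from GENCODE M21, show where the 2 coding sequences differ, and capitals mark the start codon.
Psap-203, chr10:60284501-60284531, plus strand: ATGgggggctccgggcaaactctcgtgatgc
Psap-202, chr10:60277743-60277782, plus strand: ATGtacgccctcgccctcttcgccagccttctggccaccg
The coding sequence is 1653 bases long in Psap-203 and 1662 in Psap-202. The RefSeq window at the downstream start is given whole because the transcript given most of the Psap reads begins there. It holds no CACGTG.
Psap, chr10:60284211-60284510, plus strand: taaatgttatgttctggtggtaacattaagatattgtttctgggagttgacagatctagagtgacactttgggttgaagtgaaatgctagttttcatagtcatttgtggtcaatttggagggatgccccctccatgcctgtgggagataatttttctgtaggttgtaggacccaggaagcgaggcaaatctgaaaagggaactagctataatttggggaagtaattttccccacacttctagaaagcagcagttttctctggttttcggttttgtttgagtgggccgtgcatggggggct
A 9-base exon at chr10:60297537-60297545, caggatcag, is included in Psap-205, which held 1.28% and 1.23% of the Psap TPM. Psap-201, with 6 more coding bases than Psap-202, held 4.73% and 4.54%. Forms with these additions were therefore minor in both libraries.

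Lamp2 is spliced to 3 alternative last exons, which encode the membrane anchor and the cytosolic tail. Lamp2-202, the form called LAMP-2B, held 74.4% of the Lamp2 TPM in library 1 and 74.1% in library 2. Lamp2-201, the form LAMP-2A that takes up proteins in chaperone-mediated autophagy, held 21.7% and 22.3%, and Lamp2-203, the form LAMP-2C, held 0.42% and 1.16%. The order was the same in both libraries. The last 33 coding bases of each form, without the stop codon, are shown because the tails set the forms apart, and capitals mark bases that are not the same in all 3.
Lamp2-202, chrX:38421715-38421747, minus strand: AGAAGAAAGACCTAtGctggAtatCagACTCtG
Lamp2-201, chrX:38405435-38405467, minus strand: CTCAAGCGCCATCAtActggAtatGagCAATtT
Lamp2-203, chrX:38402142-38402174, minus strand: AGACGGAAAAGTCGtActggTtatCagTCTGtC

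In 3 genes the coding share fell under 80% in at least 1 library, so that the gene level overstates the coding form. Mcoln1 was the extreme, with a coding share of 25.7% in library 1 and 48.6% in library 2. Among its transcripts with a retained intron, Mcoln1-203 held 36.3% and 37.1% and Mcoln1-205 held 35.3% and 14.05%, while the coding Mcoln1-201 held 18.2% and 38.0%. These are shares of TPM, in which a short transcript weighs more than in counts. By expected counts Mcoln1-201 led in both libraries, with 338 and 643. Mcoln1-203 had 145 and 132 counts, and Mcoln1-205 had 124 and 43.7. Asah1 had a coding share of 67.5% and 78.4%, with 28.6% and 17.1% in the retained-intron transcript Asah1-203. Ctsh had a coding share of 86.0% and 71.3%, with 9.67% and 26.8% in Ctsh-202, a transcript annotated for nonsense-mediated decay. Coding transcripts of Ctsh alone came to 68.7 and 68.3 TPM, so the higher gene level of Ctsh in library 2 lay in transcripts that are not annotated as protein-coding.

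In Lgmn the leading transcript differed between libraries: Lgmn-202 held 42.7% in library 1 and 65.0% in library 2, and Lgmn-201 held 57.3% and 35.0%. Both carry the same coding sequence. The transcript that GENCODE M21 names Gm49369-201 was counted within Ctsd in the deposited tables and held 14.4% and 11.5% of the Ctsd TPM. Grn-201 led Grn with 89.3% and 94.8%.

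**Figure D5:**
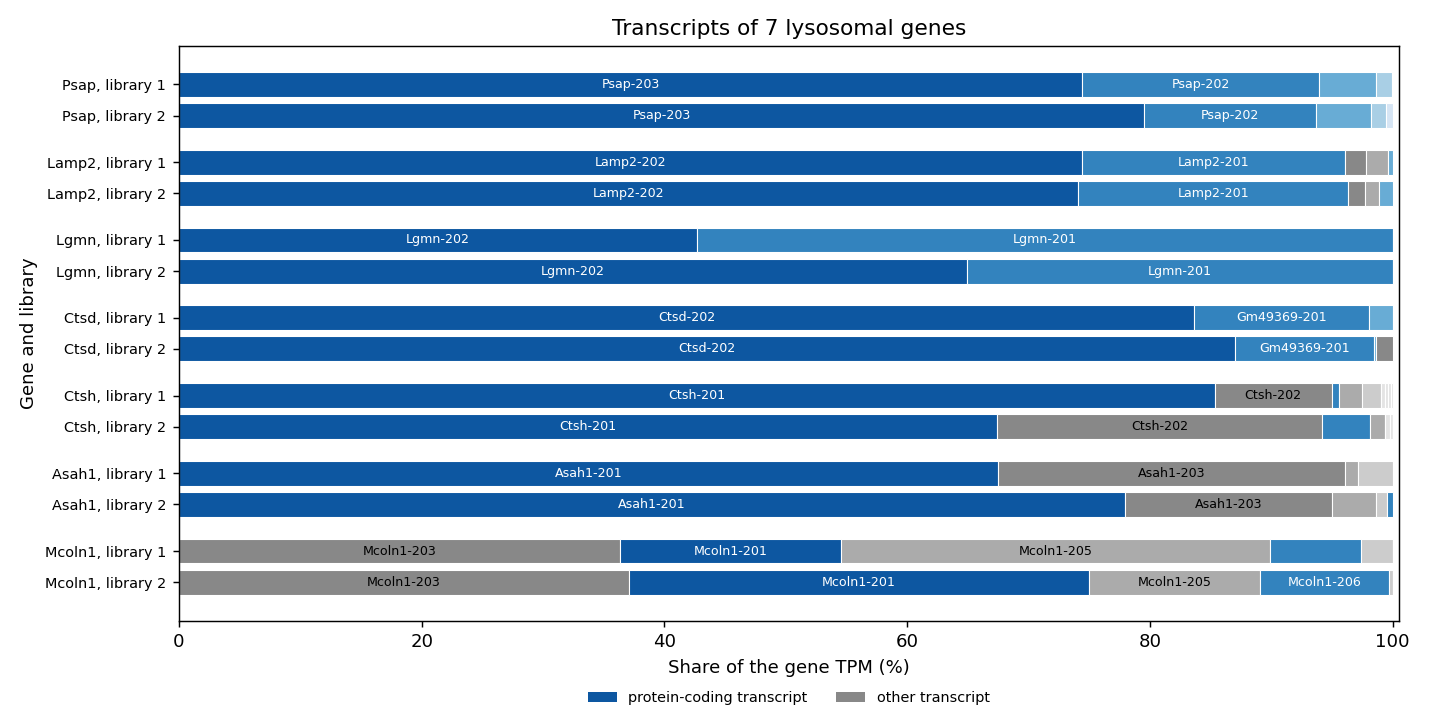
Share of the gene TPM (%) held by each transcript of 7 lysosomal genes, with library 1 above library 2 for each gene; blue segments are protein-coding transcripts and grey segments are others. Psap-203 and Lamp2-202 hold 74.1% or more of their gene in both libraries, and Mcoln1 is the gene with the most grey.

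Some levels depend on how reads were divided between genes. Counts were whole numbers, within 0.005, in both libraries for 37 of the 40, the exceptions being Glb1, Cd63 and Atp6v0c. Glb1 overlaps Tmppe on the same strand, to which 1277 and 1248 counts were assigned, and Atp6v0c has the copy Atp6v0c-ps2, with 0 and 1.07 counts. The sources used here do not say whether strand was used in counting, so genes that overlap a neighbour on the opposite strand are less certain. Ppt1, with 5025 and 6709 counts, lay below its overlapping neighbour Cap1, with 27723 and 33282 counts. Npc1, with 3001 and 3705 counts, overlaps Rmc1, with 1568 and 2014 counts. Ctsb, with 28008 and 34749 counts, overlaps Fdft1, with 1120 and 1520, and Ctsz, with 11765 and 15605 counts, overlaps Nelfcd, with 1714 and 1594.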

How the data were processed

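Total RNA was measured in 2 libraries of 1 group. The authors' deposited tables hold 1 row per gene and per transcript, made on mm10 with GENCODE M4 as the deposited text files say. Aligner, quantifier and strand setting are not given in the sources used here. Deposited expected counts are estimated and unnormalized. The deposited TPM values are scaled to a fixed total over all rows, short RNAs included. The deposited percent gives each transcript's share of its gene's TPM.

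Gene IDs without version were matched to GENCODE M21, which is on the same build, and 42462 of 43346 mouse rows matched. Values are the mean ± SD of 2 libraries. Expected counts were rounded and scaled with edgeR 4.0.16 (TMM) in R 4.3.3, with genes whose mean count was at least 10. The ratio of library 1 to library 2 has an exact Clopper-Pearson counting interval at 95%, which was tested on simulated data. The simulated counts had only the counting error that the interval assumes, so this checks the computation alone. Libraries counted as apart at 1.5-fold or more. There is 1 library a side, so no p was computed. Genes at 0 have a limit of 3 counts. Since reads lacked molecular identifiers and may repeat a molecule, limits and intervals cover counting error only. Tables were handled in Python 3.11.15 with pandas 2.3.3 and scipy 1.17.1.

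Every member is named. Of 88 other pathway genes in 7 lists, the 3 highest of each list and those under 1 TPM in both libraries could be named; some of these are not reported here by name and stay in the counts and medians. For transcripts, members were named whose leading transcript was noncoding, differed between libraries or held under 50% in both. Psap, Grn, Lamp2 and Ctsb were named as well, and Ctsh, Asah1 and Ctsd were chosen once their values had been seen. The members, the lists and the promoter motifs were chosen with earlier results of these data known. Alternatives were the posterior mean TPM, another TPM denominator, coding transcripts alone, each library alone, other scalings (DESeq2 1.42.0 among them), a 2-fold threshold and other count minimums.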

Additional observations from a re-analysis of the deposited data

How the results depend on the processing

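The TPM scale set the levels. With TPM rescaled to nuclear protein-coding genes alone, the median was 113 over the 40 lysosomal genes, 233 over the proteases, 69.4 over the hydrolases, 131 over the membrane proteins and 154 over the pump genes, and 36 genes reached 10 TPM in both libraries. By construction this rescaling raised every member and kept the order within a library. In a single library the medians ran between 26.3 and 31.9 TPM (all members), 55.6 and 62.5 (proteases), 17.1 and 18.1 (hydrolases), 30.9 and 35.6 (membrane proteins) and 36.1 and 42.0 (pump genes). Each library taken alone had 28 genes at 10 TPM or more, not all of them the same genes. With the posterior mean TPM all 40 levels moved by less than 1 SD. It counted 28 genes at 10 TPM, and coding transcripts alone counted 27.

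The count of genes 1.5-fold apart was 4 under DESeq2 size factors, summed counts, the ratio of deposited TPM and no minimum count. It was 2 with a 2-fold threshold (Ctsk and Ctsf) and 2 with a mean count of 100 or more (Ctse and Galc). The median log2 ratio of the members, whose alternatives were chosen after seeing the data, was -0.09 with DESeq2, -0.08 with summed counts and -0.17 as a ratio of deposited TPM, where the median of all genes was -0.07. No paired analysis was possible because there is 1 group. Of the limits, depth matters most for Ctsk and Ctsf, and 2 libraries give no estimate of the spread between animals.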
